A study of Homo sapiens with 12 samples.

Results

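Transcripts of 6 carbonic anhydrase genes, CA2, CA8, CA12, CA13, CA11 and CA5B, were followed in HEK293T cells that express different forms of the histone methyltransferase EZH2. They were chosen by symbol from the 14438 genes of the deposited count table, and all 6 were present and tested. HEK293T is a human embryonic kidney line, here infected with lentivirus that carried wild-type EZH2 (WT), the gain-of-function (GOF) mutants Y641F or A677G of EZH2, or its loss-of-function (LOF) double mutant H689A/F667I. Each of the 4 lines was sequenced as 3 replicates, which the study calls biological, giving 12 samples. All lines keep the endogenous EZH2 gene beside the construct and went through blasticidin selection, which the study describes as yielding monoclonal populations. With 1 line per genotype, an effect of the mutation and a property of that line cannot be told apart, and p-values measure the spread between these samples. The comparisons ask what amino acid changes in the catalytic centre of EZH2 do to transcript levels.

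Carbonic anhydrases are zinc enzymes that interconvert carbon dioxide and bicarbonate, and so set the pace of proton and bicarbonate handling on both sides of a membrane. CA2 and CA13 act in the cytosol, CA5B in mitochondria, where bicarbonate feeds carboxylases, and CA12 at the cell surface with its active site facing outward. CA8 and CA11 are carbonic anhydrase-related proteins that lack a functional zinc site, and CA8 is known to bind the inositol trisphosphate (IP3) receptor ITPR1. In the kidney, CA2 serves acid and bicarbonate transport along the tubule. EZH2 is the catalytic subunit of Polycomb repressive complex PRC2, which methylates lysine 27 of histone H3 at genes that are kept low.

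Counts per sample summed to between 32137700 and 44562413. Levels below are CPM, the counts of a gene relative to all counts of its sample, scaled by TMM. Every test is the quasi-likelihood test of edgeR, adjusted by Benjamini-Hochberg over the 14263 genes tested, referred to as the edgeR test and read at an adjusted p of 0.05. EZH2 itself averaged 158 ± 4.32 CPM (SD, n = 3) in the WT line, 218 ± 9.61 in the Y641F line, 173 ± 8.57 in the A677G line and 208 ± 2.03 in the LOF line, in counts that do not tell the construct from the endogenous gene. Replicate 1 of the Y641F line stood apart from replicates 2 and 3 on the first principal components of all genes, and values without it are given for the members, listed genes and neighbouring genes whose call it changes. By another measure, the chi-square of the counts per degree of freedom, replicates 2 and 3 of that line were the most unlike, at 14.7. Replicate 1 gave 10.9 with replicate 2 and 10.3 with replicate 3. Of 8 markers of HEK293T, 7 were tested and summed to 782 to 806 CPM in the WT line, 664 to 692 in the Y641F line, 639 to 670 in the A677G line and 715 to 738 in the LOF line. The markers NEFM and NEFL, 2 neurofilament genes, were called lower in all 3 mutant lines, VIM in the Y641F line and LHX1 in the A677G line, CDH2 was called higher in both GOF lines, and PAX2 was at 0 in all replicates of at least 1 line. Of 9 genes of the differentiated tubule, 2 were tested, of which LRP2 was called lower in the A677G line. Of 8 blood cell markers 1 was tested, at 0.514 to 1.30 CPM, and of 6 stromal markers 3 were tested, of which LUM was called higher in the Y641F line. Without replicate 1 of the Y641F line, LUM was no longer called there (edgeR test, adjusted p = 0.152) and LRP2 was called lower (adjusted p = 0.00393). The part of these differences in the results below was not tested.

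Per length of exon, CA2 was the most abundant of the 6 transcripts in every line. In the WT line it reached 58.2 ± 2.23 CPM per kilobase (SD, n = 3), against 3.20 ± 0.573 for CA11, 2.75 ± 0.0709 for CA8, 2.40 ± 0.122 for CA12, 0.816 ± 0.124 for CA13 and 0.804 ± 0.226 for CA5B. Sums were taken over the 7 tested carbonic anhydrase genes that code for protein, the 6 members and CA14. In the WT line CA2 made up 85.1% ± 0.699 of their summed CPM per kilobase. Its share was 83.6% ± 0.640 in the Y641F line, 83.5% ± 1.86 in the A677G line and 85.2% ± 0.682 in the LOF line (SD, n = 3). The summed level was 68.5 ± 2.40 CPM per kilobase in the WT line, 60.9 ± 4.97 in the Y641F line, 57.0 ± 3.64 in the A677G line and 75.1 ± 4.25 in the LOF line (SD, n = 3). With the longest transcript in place of the union of exons, the CA2 share in the WT line was 85.5% and CA2 reached 74.8 CPM per kilobase. CA8, at 3.697, then lay above CA11, at 3.63, so the order of these genes rests on the length used. These are levels relative to the annotated length and were not tested between genes.

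**Figure D1:**
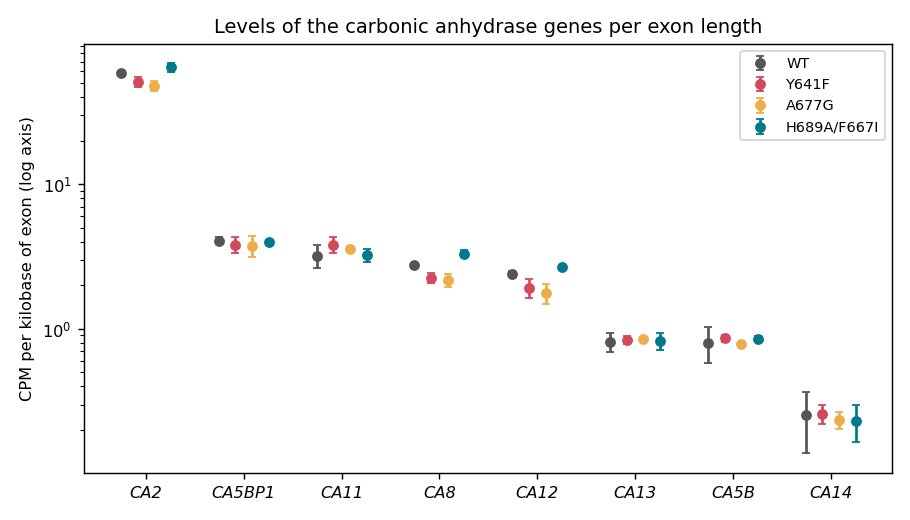
Mean CPM per kilobase of exon, on a log axis, for the carbonic anhydrase genes and the pseudogene CA5BP1 in the 4 lines, with bars for the SD over 3 replicates. CA2 lies far above the rest in every line, at 58.2 CPM per kilobase in the WT line, while CA14 lies lowest.

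CA2, the fast cytosolic enzyme, was lower in both GOF lines than in the WT line. CA2 (ENSG00000104267.10) lies on the plus strand of chromosome 8 of GRCh38, from 85463968 to 85481493. Its replicates had 120, 118 and 112 CPM in the WT line, 112, 101 and 94.2 in the Y641F line, 103, 95.8 and 87.5 in the A677G line, and 138, 123 and 124 in the LOF line. All replicates of both GOF lines were below those of the WT line, the highest in the Y641F line at 111.6 against the lowest in the WT line at 111.9, and all LOF replicates were above them. How many of all genes separate a GOF line from the WT line in this way was not counted. Such separations of GOF and WT replicates, here and below, are given as description only. CA2 fell by 12.5% in the Y641F line, a log2 fold change of -0.19 (standard error 0.0538, edgeR test, adjusted p = 0.0187). In the A677G line it fell by 18.2%, a log2 fold change of -0.29 (standard error 0.0539, edgeR test, adjusted p = 2.43e-04). The call in the Y641F line was lost without replicate 1 or 2 of the WT line or replicate 2 or 3 of the Y641F line (edgeR test, adjusted p = 0.107, 0.0905, 0.0597 and 0.160). In a bulk sample, fewer cells with the transcript and less transcript per cell cannot be told apart. The first exon region of CA2 overlaps the antisense gene CA3-AS1 over 948 bases. The sources used here do not state whether counting used the strand of the stranded libraries, and CA3-AS1 averaged between 0.490 and 0.811 CPM in the 4 lines, far below CA2.

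CA13, the other cytosolic enzyme, showed no difference past the threshold. CA13 (ENSG00000185015.8, chromosome 8 of GRCh38, 85220587 to 85284073, plus strand) starts 243 kb before CA2 on the same strand. It had 5.06, 4.87 and 3.77 CPM in the WT line, 4.73, 4.36 and 5.01 in the Y641F line, 4.71, 4.91 and 4.66 in the A677G line and 4.71, 3.97 and 5.24 in the LOF line. The replicates of all 4 lines overlapped. The log2 difference from the WT line was 0.04 in the Y641F line (95% interval -0.25 to 0.33), 0.06 in the A677G line (-0.24 to 0.35) and 0.01 in the LOF line (-0.28 to 0.31).

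**Figure D2:**
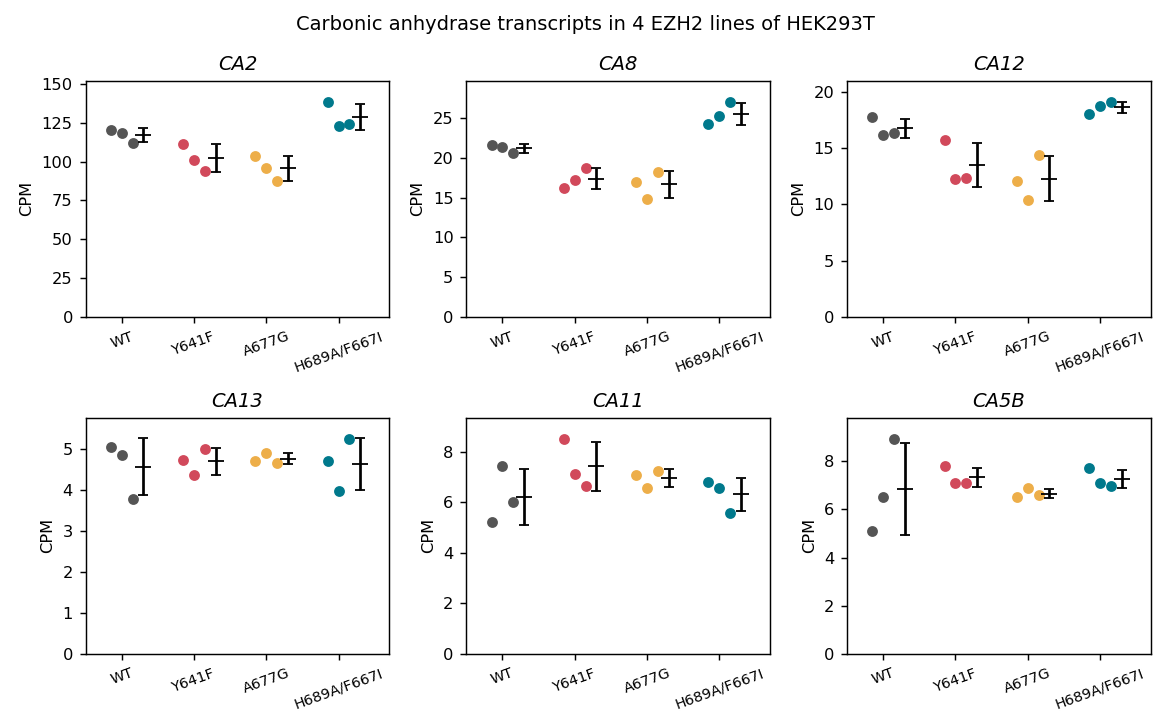
TMM-scaled CPM of each of the 6 genes in the 12 samples, with a coloured point per replicate and, in black, the mean and SD over the 3 replicates of a line. CA2, CA8 and CA12 are lower in Y641F and A677G than in WT and H689A/F667I, with CA8 at 14.8 to 18.8 CPM in the GOF lines and 20.6 to 27.0 CPM in the others, while CA13, CA11 and CA5B overlap between WT and each mutant.

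CA8, the related protein that binds the IP3 receptor, showed the same order of lines. CA8 (ENSG00000178538.10) lies on the minus strand of chromosome 8 of GRCh38, from 60185412 to 60281400, on the same chromosome as CA2 and CA13 but far from both. Its replicates had 21.7, 21.3 and 20.6 CPM in the WT line, 16.2, 17.2 and 18.8 in the Y641F line, 16.9, 14.8 and 18.2 in the A677G line, and 24.3, 25.2 and 27.0 in the LOF line. Every GOF replicate was below every WT replicate, and every LOF replicate was above. CA8 fell by 18.0% in the Y641F line and by 21.6% in the A677G line (edgeR test, adjusted p = 0.0151 and 0.00221). The call in the Y641F line was lost without replicate 1 or 2 of the WT line or without replicate 1 of the Y641F line (edgeR test, adjusted p = 0.0700, 0.0615 and 0.0672). In the LOF line CA8 was 20.1% higher on average, with a 95% interval of 1.08-fold to 1.34-fold, and missed the threshold (edgeR test, unadjusted p = 0.00140, adjusted p = 0.183).

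CA11, the second related protein, is thought to be secreted. CA11 (ENSG00000063180.9) lies on the minus strand of chromosome 19 of GRCh38, from 48637946 to 48646187, and overlaps the pseudogene SEC1P, which lies on the opposite strand. It had 5.22, 7.43 and 6.03 CPM in the WT line, 8.51, 7.12 and 6.67 in the Y641F line, 7.09, 6.56 and 7.24 in the A677G line and 6.79, 6.57 and 5.59 in the LOF line. Replicates of the WT line spanned most of the range of the other lines. Its log2 difference from the WT line was 0.25 in the Y641F line (95% interval -0.01 to 0.52) and 0.16 in the A677G line (-0.11 to 0.42), neither past the threshold (edgeR test, adjusted p = 0.284 and 0.559). The sign was upward in both GOF lines, and these intervals do not exclude a rise as large as the fall of CA8.

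CA12, the surface enzyme that faces outward, was lower in both GOF lines. CA12 (ENSG00000074410.14) lies on the minus strand of chromosome 15 of GRCh38, from 63321378 to 63381846. It had 17.8, 16.2 and 16.4 CPM in the WT line, 15.7, 12.3 and 12.4 in the Y641F line, 12.1, 10.4 and 14.4 in the A677G line, and 18.0, 18.7 and 19.1 in the LOF line. The groups did not overlap between the WT line and any mutant line, although replicate 1 of the Y641F line, at 15.7, came close to the lowest WT replicate. CA12 fell by 19.6% in the Y641F line, a log2 fold change of -0.32 (standard error 0.0973, edgeR test, adjusted p = 0.0374). In the A677G line it fell by 26.9%, a log2 fold change of -0.45 (standard error 0.0982, edgeR test, adjusted p = 0.00169). Of the 3 calls in the Y641F line this one was lost in the most settings. Its adjusted p in the edgeR test was 0.181, 0.0769 and 0.0618 without replicate 1, 2 or 3 of the WT line, 0.158 and 0.177 without replicate 2 or 3 of the Y641F line, and 0.0514 without replicate 2 of the LOF line. Without replicate 1 of the Y641F line, the library that stood apart on the principal components, CA12 fell by 0.44 on the log2 scale (edgeR test, adjusted p = 0.00192) and CA2 by 0.26 (adjusted p = 7.74e-04).

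CA5B, the mitochondrial enzyme, did not pass the threshold in any comparison. CA5B (ENSG00000169239.14) lies on the plus strand of the X chromosome of GRCh38, from 15688830 to 15788411, and overlaps CA5BP1, a pseudogene on the same strand. The symbol CA5BP1 is annotated both as a pseudogene and as a long noncoding RNA, and the length of the latter was used. How alike CA5B and CA5BP1 are in sequence was not compared here. Reads could be split between them, so the counts of both are uncertain. CA5B had 5.11, 6.52 and 8.93 CPM in the WT line, 7.80, 7.12 and 7.12 in the Y641F line, 6.51, 6.88 and 6.61 in the A677G line and 7.71, 7.11 and 6.98 in the LOF line. The WT replicates spread more widely than those of any mutant line and covered all of them. The 95% interval of the log2 difference from the WT line ran from -0.17 to 0.38 in the Y641F line and from -0.31 to 0.24 in the A677G line.

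Of the 6 genes, CA12 and CA5B matched the RefSeq promoter table for GRCh38.p14, and their promoters set a member that was called lower beside a member that was not. The 250 bases before the annotated start are printed 5′ to 3′ on the strand of the gene, with each CpG in capitals, since PRC2 is known for binding at CpG-rich promoters. They lie at chr15:63381847-63382096 on the minus strand for CA12 and at chrX:15738020-15738269 on the plus strand for CA5B, a RefSeq start that lies inside the longer GENCODE gene.
CA12: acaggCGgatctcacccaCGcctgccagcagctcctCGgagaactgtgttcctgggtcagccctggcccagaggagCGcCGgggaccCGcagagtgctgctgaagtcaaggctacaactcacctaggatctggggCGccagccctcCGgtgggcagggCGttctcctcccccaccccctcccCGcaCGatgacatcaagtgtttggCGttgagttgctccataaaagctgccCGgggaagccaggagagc
CA5B: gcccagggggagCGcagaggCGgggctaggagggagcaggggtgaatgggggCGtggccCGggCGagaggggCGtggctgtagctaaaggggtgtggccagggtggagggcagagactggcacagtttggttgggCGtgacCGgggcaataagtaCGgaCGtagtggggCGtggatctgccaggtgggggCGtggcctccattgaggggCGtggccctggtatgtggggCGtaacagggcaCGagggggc
The CA12 window held 13 CpG at a GC content of 64.8%, and the CA5B window held 15 CpG at 69.2%, against a median of 11 CpG over 35116 promoter windows of the same length. Fewer CpG were found in 53.4% of these windows than in that of CA12 and in 57.1% than in that of CA5B, so both lie near the middle. The GC-box core GGGCG, searched on both strands, occurred at 2 places before CA12 and 8 before CA5B, and in 54.8% of all windows. GCGTG occurred at 1 place before CA12 and at 6 before CA5B, and in 32.2% of all windows, and ACGTG, with which it forms the core motif of the hypoxia-inducible factors, in neither member and in 18.5% of all. Neither window held CCAAT, found in 32.01% of all, or TATAAA, found in 10.7%. The capitals thus show no CpG-poor or unusually CpG-rich window in either member, and methylation or binding there was not measured in these files.

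Against the WT line, 3 of the 6 genes were called lower and 0 higher in the Y641F line, where 5.59% of all genes tested were called lower and 2.09% higher. The same 3, CA2, CA8 and CA12, were called lower in the A677G line and 0 higher, where 6.48% of all genes were called lower and 2.07% higher. The median log2 fold change over the 6 genes was -0.08 in the Y641F line and -0.16 in the A677G line, beside medians over all genes of 0.00251 and 0.00454. Both comparisons use the same 3 WT samples. The study had already reported CA2 as lower in both GOF mutants, from these RNA data and its proteomics. It also proposed CA8 as an EZH2 target, from its chromatin data together with these RNA data. The genes were chosen with this known, so the 3 of 6 is not an independent count for the family. In the LOF line 0 of the 6 were called in the edgeR test, where 0.301% of all genes were called in either direction, and 2 of them, CA2 and CA8, had an unadjusted p under 0.05, as did 8.3% of all genes. No alternative test called any of the 6 genes in that comparison. The 3 genes CA2, CA8 and CA12 did not overlap between the LOF line and the WT line, all with the LOF replicates higher, as was the case at 7.89% of all genes. The log2 differences there were 0.14 for CA2 (95% interval 0.03 to 0.24), 0.26 for CA8 (0.11 to 0.42) and 0.15 for CA12 (-0.04 to 0.34).

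**Figure D3:**
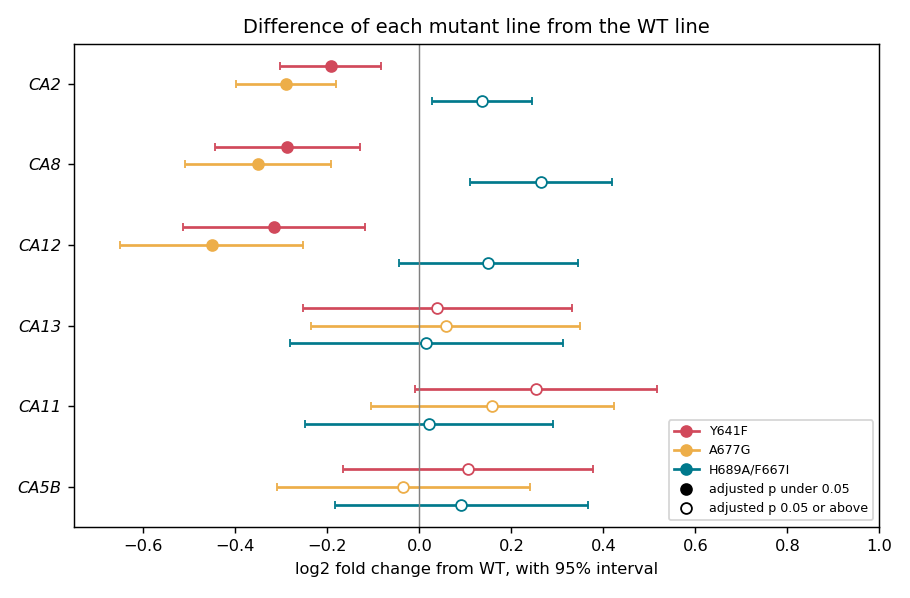
Log2 fold change of each gene from the WT line in the 3 mutant lines, with bars for the 95% interval of the edgeR fit and filled points for an adjusted p under 0.05. CA2, CA8 and CA12 are filled and below 0 in Y641F and A677G, from -0.19 to -0.45, and open and above 0 in H689A/F667I, while all points of CA13, CA11 and CA5B are open.

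Compared directly, the GOF and LOF lines differed at the same 3 genes. From the LOF line to the Y641F line, CA2 fell by 20.4%, CA8 fell by 31.8% and CA12 fell by 27.6% (edgeR test, adjusted p = 4.01e-05, 3.40e-06 and 0.00106), and 6.43% of all genes were called lower in this comparison. From the LOF line to the A677G line, CA2 fell by 25.6%, CA8 fell by 34.7% and CA12 fell by 34.1% (edgeR test, adjusted p = 4.42e-07, 4.04e-07 and 3.18e-05), with 7.66% of all genes called lower. All replicates of the GOF lines were below all LOF replicates at these genes, which held for 12.2% of all genes in the Y641F line and 15.5% in the A677G line. None of CA5B, CA11 and CA13 was called in either comparison. CA5B was nevertheless also without overlap in the A677G line, at 6.51 to 6.88 CPM, against 6.98 to 7.71 in the LOF line. Its A677G replicates also lay below all those of the Y641F line, without a call (edgeR test, adjusted p = 0.891). How many of all genes separate these GOF lines in this way was not counted. Between the Y641F line and the A677G line, 0 of the 6 genes were called in the edgeR test and 0 had an unadjusted p under 0.05, where 0.0841% of all genes were called and 6.91% had such an unadjusted p. The intervals of the fold between the GOF lines, the Y641F line over the A677G line, were 0.99 to 1.15 for CA2, 0.94 to 1.17 for CA8 and 0.96 to 1.26 for CA12. With the mean of the GOF lines set against the mean of the WT line and the LOF line, CA2 fell by 19.3%, CA8 fell by 26.9% and CA12 fell by 27.2% (edgeR test, adjusted p = 8.84e-08, 7.29e-08 and 3.88e-06), and 10.4% of all genes were called lower.

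The order of the mean levels was the same for CA2, CA8 and CA12, with the LOF line highest, then the WT line, the Y641F line and the A677G line. Of the neighbouring lines in that order, the WT line and the Y641F line differed past the threshold at each of the 3 genes, while the LOF line and the WT line, or the Y641F line and the A677G line, were not shown to differ. The other 3 genes had other orders. The Y641F line was highest for CA5B (7.34 ± 0.393 CPM, SD, n = 3) and CA11 (7.43 ± 0.961), and the A677G line for CA13 (4.76 ± 0.134). Of the 18 pairs of neighbouring lines over the 6 genes, 3 differed, and all were the pairs just named. The mean of the EZH2 transcript was highest in the Y641F line, then the LOF line, the A677G line and the WT line. The Y641F line and the LOF line were not shown to differ in it (edgeR test, adjusted p = 0.357). Whether the level of EZH2 bears on CA2, CA8 or CA12 was not tested.

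Of 18 genes listed as the carbonic anhydrase family, including its pseudogene and receptor relatives, 10 were tested. The other 8, CA1, CA3, CA4, CA5A, CA6, CA7, CA9 and CA10, had no row under these symbols in the count table. Besides the members called, PTPRZ1 passed the threshold in both GOF lines, where 5.59% (Y641F) and 6.48% (A677G) of all genes were called lower. PTPRZ1 encodes a receptor tyrosine phosphatase whose extracellular part carries a carbonic anhydrase-like domain. It had 2.27, 2.23 and 1.87 CPM in the WT line, 0.808, 0.630 and 0.757 in the Y641F line, 0.673, 0.786 and 0.494 in the A677G line and 2.62, 2.80 and 2.54 in the LOF line. The GOF replicates were all below 1 CPM and those of the other lines all above, at counts of 18 to 34 against 62 to 110. PTPRZ1 fell by 1.53 on the log2 scale in the Y641F line (standard error 0.252, edgeR test, adjusted p = 4.92e-05) and by 1.69 in the A677G line (standard error 0.257, adjusted p = 1.23e-05). In the LOF line its log2 difference was 0.32 (adjusted p = 0.764, same edgeR test). Its close relative PTPRG, with the same kind of domain, differed from the WT line by 0.03 in the Y641F line and 0.08 in the A677G line on the log2 scale, at 46.9 ± 0.752 CPM (SD, n = 3) in the WT line, and was not called. The membrane enzyme CA14 stayed between 0.763 and 0.854 CPM in the mean of each line, and the pseudogene CA5BP1 between 8.21 and 8.95 CPM. Neither was called in any mutant line.

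CA8 is known as a partner of the IP3 receptor, and of 21 genes of IP3 receptor signalling 18 were tested. In the Y641F line 1 was called lower and 0 higher, in the A677G line 2 lower and 0 higher, and in the LOF line 0, beside the 5.59% and 6.48% of all genes called lower in the GOF lines. The list medians of -0.04, -0.05 and 0.01 on the log2 scale were near those of all genes. ITPR3, an IP3 receptor that releases calcium from the endoplasmic reticulum, had 39.6, 38.4 and 41.6 CPM in the WT line, 35.9, 28.6 and 27.6 in the Y641F line, 27.6, 25.9 and 29.2 in the A677G line and 43.8, 42.6 and 43.3 in the LOF line. Every GOF replicate of ITPR3 was lower than every WT replicate, with replicate 1 of the Y641F line the nearest. It fell by 0.37 in the Y641F line and 0.53 in the A677G line on the log2 scale (edgeR test, adjusted p = 2.62e-04 and 9.78e-07). ITPR1, the receptor that CA8 is known to bind, had 25.2, 23.9 and 22.9 CPM in the WT line, 23.9, 18.5 and 20.2 in the Y641F line, 18.7, 20.7 and 17.9 in the A677G line and 25.8, 25.2 and 24.7 in the LOF line. It fell by 0.33 in the A677G line (edgeR test, adjusted p = 0.00397). In the Y641F line, where replicate 1 overlapped the WT line, its log2 difference was -0.20 (edgeR test, adjusted p = 0.117), and without that replicate it fell by 0.31 and was called (adjusted p = 0.00623).

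Carbonic anhydrases work with transporters that carry bicarbonate, protons and lactate. Of 20 listed bicarbonate and anion transporters 11 were tested, and 2 were called lower and 1 higher in the Y641F line, 2 lower and 2 higher in the A677G line, and 0 in the LOF line, beside 5.59% lower and 2.09% higher, and 6.48% lower and 2.07% higher, of all genes. SLC4A4, a sodium bicarbonate cotransporter, had 9.90, 9.63 and 12.2 CPM in the WT line, 7.70, 7.49 and 7.54 in the Y641F line, 7.67, 7.18 and 7.76 in the A677G line and 10.5, 9.83 and 10.1 in the LOF line. It fell by 0.48 on the log2 scale in each GOF line (edgeR test, adjusted p = 0.00221 in the Y641F line and 0.00163 in the A677G line), with no GOF replicate as high as those of the WT line. The chloride bicarbonate exchanger SLC4A3 fell by 0.91 and 0.84 (edgeR test, adjusted p = 0.00661 and 0.0106), from 2.62 CPM in the WT line to 1.40 in the Y641F line and 1.46 in the A677G line. In the other direction, SLC4A7, a sodium bicarbonate cotransporter, rose by 0.14 and 0.13 (edgeR test, adjusted p = 0.0318 and 0.0437) from 79.2 ± 2.79 CPM (SD, n = 3), and SLC26A11, an anion exchanger, rose by 0.29 in the A677G line (adjusted p = 0.0180, same edgeR test). Without replicate 1 of the Y641F line, SLC4A7 was not called in that line (edgeR test, adjusted p = 0.0995), while the bicarbonate transporter SLC4A8, at -0.55 with all samples, fell by 0.97 and was called (adjusted p = 0.0133).

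Of 23 genes of proton and lactate transport 19 were tested, with 2 called lower in the Y641F line, 3 lower in the A677G line, 0 higher in either and 0 in the LOF line, where all genes gave 5.59% and 6.48% lower and 2.09% and 2.07% higher. SLC9A2, a sodium proton exchanger, had 4.06, 4.63 and 3.56 CPM in the WT line, 2.09, 1.08 and 2.27 in the Y641F line, 1.57, 1.82 and 1.21 in the A677G line and 4.57, 4.07 and 4.90 in the LOF line. It fell by 1.16 and 1.41 on the log2 scale (edgeR test, adjusted p = 1.59e-04 and 1.13e-05). SLC16A7, the monocarboxylate transporter MCT2, had 6.98, 8.34 and 8.87 CPM in the WT line, 5.16, 3.78 and 4.49 in the Y641F line, 3.72, 4.18 and 4.55 in the A677G line and 5.11, 6.32 and 6.89 in the LOF line. It fell by 0.84 and 0.96 (edgeR test, adjusted p = 5.48e-05 and 8.14e-06). For both transporters all GOF replicates were below all WT replicates, and for SLC16A7 the LOF replicates were also below them, with a log2 difference of -0.40 that missed the threshold (edgeR test, adjusted p = 0.327). SLC9A9, an exchanger of recycling endosomes, fell by 0.73 in the A677G line (edgeR test, adjusted p = 0.0473), and was not called in the Y641F line at -0.53 (adjusted p = 0.192). The list medians were -0.07 and -0.04 in the GOF lines.

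All 10 genes listed for bicarbonate-fixing carboxylases and related enzymes were tested. CAD, the enzyme that starts pyrimidine synthesis, was the only call among them against the WT line. It fell by 0.12 on the log2 scale in the A677G line (edgeR test, adjusted p = 0.0471). Of all genes, 5.59% were called lower and 2.09% higher in the Y641F line, and 6.48% and 2.07% in the A677G line. CA12 is also known as a gene induced by low oxygen. Of 20 listed hypoxia-induced genes, all tested, 1 was called lower and 1 higher in the Y641F line, 2 lower and 1 higher in the A677G line, and 0 in the LOF line, against the same shares of all genes. EGLN3, a prolyl hydroxylase that marks hypoxia-inducible factor for degradation, fell by 0.28 and 0.31 (edgeR test, adjusted p = 0.0305 and 0.0136). NDRG1 fell by 0.19 in the A677G line (adjusted p = 0.0104, same edgeR test). The glucose transporter SLC2A3 rose by 0.92 and 0.87 (edgeR test, adjusted p = 0.0131 and 0.0189), from 1.27 ± 0.0289 CPM (SD, n = 3) in the WT line to 2.40 in the Y641F line and 2.32 in the A677G line. Without replicate 1 of the Y641F line, SLC2A3 was not called in that line (edgeR test, adjusted p = 0.166), and NDRG1 was called lower in the LOF line by 0.21 (adjusted p = 0.0248). The list medians of -0.03 and 0.01 were near those of all genes. Of 14 genes of the intercalated cells of the collecting duct, which are rich in CA2 in the kidney, 3 were tested. The receptor KIT fell in both GOF lines by 0.32 and 0.35 (edgeR test, adjusted p = 0.00165 and 4.39e-04), beside the shares of all genes given above. The proton pump subunit genes ATP6V1B1 and ATP6V1C2, the other 2 tested, were not called, with log2 differences of 0.16 and 0.17 in the Y641F line and 0.13 and 0.05 in the A677G line.

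**Figure D4:**
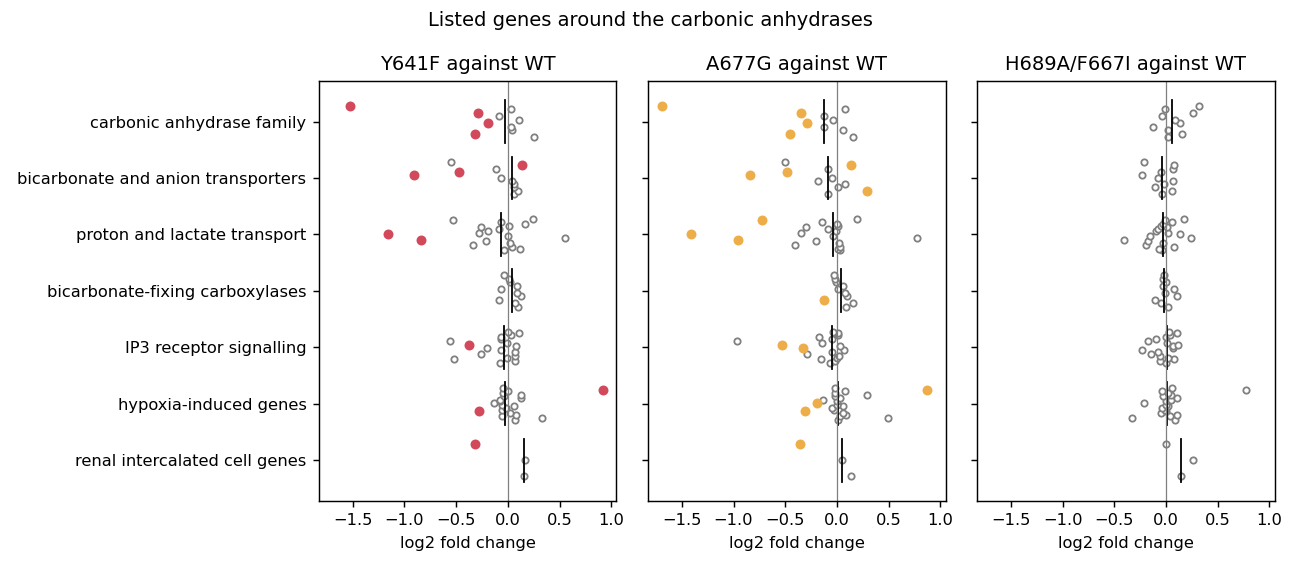
Log2 fold change from the WT line of every tested gene of 7 lists in the 3 mutant lines, 1 point per gene, coloured where the adjusted p is under 0.05, with a black bar at the median of each list. The medians of the lists of 10 or more genes lie between -0.13 and 0.06, and the called genes are few, with PTPRZ1 and SLC9A2 furthest to the left in both GOF lines.

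Calls among the genes next to the members are set beside the shares of all genes. These were 5.59% lower and 2.09% higher in the Y641F line, and 6.48% and 2.07% in the A677G line. In the LOF line 0.301% of all genes were called in either direction. Whether a window departs from these shares was not tested. Counted were tested genes of which any part lay within 500 kb of the member. Around CA2, 5 genes were tested. LRRCC1 was called lower in the Y641F line by 0.31 on the log2 scale (edgeR test, adjusted p = 0.00998), and 0 of them were called in the A677G line or the LOF line. CA13, the nearest tested gene below CA2, and CA3-AS1, the nearest above, were not called. Around CA8, 2 genes lay in the window and 0 were called. Its nearest tested gene on the left, the transcription factor gene TOX, starts 1162 kb away and was called lower in both GOF lines at low counts, by 1.195 and 1.08 on the log2 scale (edgeR test, adjusted p = 0.0247 and 0.0406), from 1.04 ± 0.378 CPM (SD, n = 3) in the WT line, where replicate 3, at 0.603, was close to the highest GOF replicate at 0.568. The nearest on the right, RAB2A, had log2 differences of 0.13 in both GOF lines and was not called, but was called higher in both without replicate 1 of the Y641F line (edgeR test, adjusted p = 0.0277 and 0.0405).

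Around CA12, 8 genes were tested, and the ribosomal protein gene RPS27L was called higher in both GOF lines, by 0.33 and 0.43 on the log2 scale (edgeR test, adjusted p = 1.31e-04 and 1.96e-06), opposite in direction to CA12. TLN2, a talin gene whose end reaches into the window although its start lies 991 kb from that of CA12, was called lower in the Y641F line by 0.32 (edgeR test, adjusted p = 0.00946) with -0.09 in the A677G line. The call of TLN2 was lost without replicate 1 of the Y641F line (edgeR test, adjusted p = 0.0645). The nearest genes on either side of CA12, APH1B and USP3, were not called. Of 35 genes around CA11, BAX was called higher in both GOF lines, by 0.16 and 0.31, and DBP in the A677G line, by 0.29 (edgeR test, adjusted p = 0.0416, 4.99e-05 and 0.0179). Without replicate 1 of the Y641F line, PPFIA3 was also called lower in the Y641F line and CARD8 higher in the A677G line (edgeR test, adjusted p = 0.0139 and 0.0486). Of 7 genes around CA5B 0 were called, and of 5 around CA13 the calls were LRRCC1 and CA2 in the Y641F line and CA2 in the A677G line. In the LOF line, where 0.301% of all genes were called, 0 of the genes in any window were called. Of the tested genes nearest to CA2, CA8 and CA12 on either side, TOX was the only call against the WT line with all 12 samples.

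**Figure D5:**
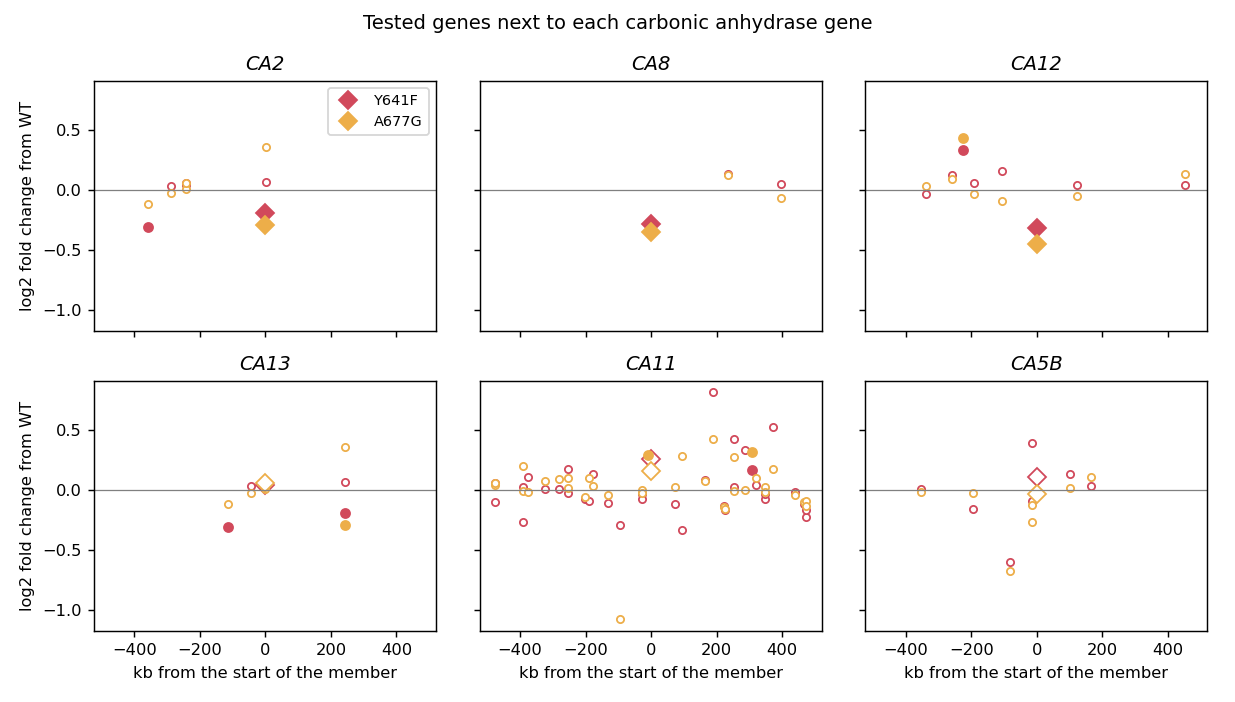
Log2 fold change from the WT line in Y641F and A677G for tested genes whose start lies within 500 kb of the start of each member, plotted by distance in kb (TLN2 starts farther away and is not drawn), with diamonds for the member and filled symbols for an adjusted p under 0.05. Near CA12 the filled points of RPS27L lie above 0, at 0.33 and 0.43, while those of CA12 lie below 0.

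The genes whose log2 CPM most resembled a member over the 12 samples were taken, by Pearson's r as a description, from the 12039 genes that averaged 1 or more on the log2 CPM scale. For CA2 they were SMTNL2 (r = 0.956), THSD1 (0.954) and ELOVL2 (0.937). For CA8 they were SULF2 (0.940), DNAJC6 (0.940) and MAP7 (0.937), and for CA12 PXDC1 (0.973), HPGD (0.971) and PCDH20 (0.963). All 9 had higher means in the LOF line than in the WT line and lower means in both GOF lines, and the 12 samples share these 4 lines. Choosing by r over the same samples favours this order, so it is no separate result. HPGD, for instance, averaged 3.94 CPM in the WT line, 2.62 in the Y641F line, 2.32 in the A677G line and 5.15 in the LOF line. Beside the members not called, ANKRD46 was most like CA5B (0.867), TPD52L2 most like CA13 (0.892) and EVA1B most like CA11 (0.941). Among the members, r was 0.87 between CA8 and CA12, 0.81 between CA2 and CA12 and 0.76 between CA2 and CA8. The 9 pairs that joined one of these 3 with CA5B, CA11 or CA13 had r between -0.53 and 0.06.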

How the data were processed

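RNA of 12 HEK293T samples was sequenced from TruSeq stranded mRNA libraries. The submitters' processing notes name Trim Galore 0.6.5, STAR 2.7.9a and Salmon 1.2.0 with GRCh38, and edgeR 3.16. The deposited table holds unnormalized whole-number counts, 1 row per gene symbol. How Salmon's estimates were summed to symbols is not given in the sources used here. A set of 175 genes had no counts in any replicate of A677G or of H689A/F667I, although 0 genes were at 0 in only 2 of 3 replicates, and was left out. The other 14263 genes were tested in R 4.3.3 with edgeR 4.0.16 (TMM scaling, quasi-likelihood test, all samples in 1 fit with 1 coefficient per line, two-sided, Benjamini-Hochberg adjustment) in 7 comparisons, in place of the study's exact test. The fit was tested on simulated data. Log2 CPM used a prior count of 2. Symbols were matched to GENCODE on GRCh38, of which 13272 matched by name, 809 through a synonym and 357 did not match. Lengths are unions of exons, and 3 listed genes were found under older symbols. Replicates of a line differed by more than sampling noise (chi-square per degree of freedom of 3.33 to 14.7), so none was counted as a duplicate. The members and lists were chosen with earlier results of these data known. Named are all members, all tested family genes, up to 3 called genes per list and direction, the nearest tested gene on each side and those called with any part within 500 kb, genes whose call changed without replicate 1 of Y641F (chosen after their values were seen), and the 3 most alike genes. Alternatives were other scaling, filters, tests (exact, DESeq2 1.42.0, limma voom 3.58.1), the replicate block, GC trend removal and each sample left out. The chromatin, proteomics and metabolomics data of the study were not used here. The values of 1 marker gene are not reported here.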

Additional observations from a re-analysis of the deposited data

Results flagged for a closer look

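The direct differences between GOF and LOF lines passed the threshold at 3 genes, in the edgeR quasi-likelihood test with Benjamini-Hochberg adjustment. On the log2 scale the Y641F line minus the LOF line was -0.33 at CA2, -0.55 at CA8 and -0.47 at CA12 (adjusted p = 4.01e-05, 3.40e-06 and 0.00106). The A677G line minus the LOF line was -0.43 at CA2, -0.62 at CA8 and -0.60 at CA12 (adjusted p = 4.42e-07, 4.04e-07 and 3.18e-05). All 3 replicates of each GOF line were lower than all 3 of the LOF line at each gene. Such a separation held for 12.2% of all genes in the Y641F line and 15.5% in the A677G line. The shares of all genes called lower against the LOF line were 6.43% and 7.66%. Part of each difference is on the LOF side of the WT line, where none of these genes was called.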

How the results depend on the processing

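Of 954 values of a member under an alternative, 939 kept their side of the threshold and 15 were no longer past it, all in the comparison of the Y641F line with the WT line. The sign turned in 31, none of which was past the threshold in either setting. The calls of CA2, CA8 and CA12 in the A677G line, and those between GOF and LOF lines, held in every alternative run, with adjusted p of at most 0.0430 in the A677G line against the WT line. In the Y641F line against the WT line the number of members called was 3 and ranged from 0 to 3 with 1 sample left out, and it was 0 without replicate 1 or 2 of the WT line and 1, CA8, without replicate 2 or 3 of the Y641F line. The number of neighbouring lines that differed, over all members, likewise ranged from 0 to 3. CA12 in the Y641F line was also lost with library totals (edgeR test, adjusted p = 0.0625) and with only the compared lines in the fit (adjusted p = 0.0506). The cause was not tested. With the replicate block 3 members were again called in the Y641F line, CA12 at -0.32 (edgeR test, adjusted p = 0.0271), and no call of a member changed. Samples of the same number did not deviate together (r of -0.0557 to 0.0501 over 18 pairs), so the numbers were not taken as pairs. Over all genes, the share of calls that were lower moved from 65.3% to 76.4% with upper-quartile factors for the GOF mean, and from 53.5% to 64.5% with library totals for the LOF line. All 24 mean CPM of members stayed within 1 SD with library totals. With the longest transcript 21 of 24 levels per kilobase moved by more than 1 SD. Leaving out replicate 1 of the Y641F line, chosen after seeing the data for the listed and neighbouring genes, CA8 among them, ended 5 and added 5 calls in the Y641F line against the WT line, where 19 were kept. The exact test and the fit of only the compared lines were not run for the mean of 2 lines. Counts of 125 to 358 for CA13, CA11 and CA5B per sample limit what could be seen there.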
